A study of Mus musculus with 2 samples.

Results

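The miR-15 family was followed through 7 annotated mouse hairpins: Mir15a, Mir16-1, Mir15b, Mir16-2, Mir195a, Mir497 and Mir497b. They were taken by name from the 2202 miRNA genes of the deposited tables, and 6 of the 7 were among the 325 genes with at least 10 counts in both libraries. The hairpins were measured by microRNA-seq, which sequences short RNA, in heart of adult male 5xFAD/CAST mice aged 8 to 10 months. 5xFAD mice are a transgenic model of amyloid deposition in the brain, with transgenes under the Thy1 promoter, which drives expression mainly in neurons, and CAST is a wild-derived strain. Whether the transgenes were carried on 1 or both chromosomes is not given in the labels. Both libraries, replicates 1 and 2, belong to this single group, so no condition was compared. They have separate biosample entries and 1 donor entry, and nothing in the labels says that they came from different animals, so the spread between them may be technical.

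A miRNA hairpin is cut from a longer primary transcript, and 1 or both of its arms, 5p and 3p, become mature miRNAs. The mature miRNA finds its target mRNAs mainly through its seed, bases 2 to 8 counted from the 5′ end. The miR-15 family represses cell cycle and survival genes such as cyclins, Chek1 and Bcl2. In mouse heart it is known for a rise after birth, led by miR-195, at the time when cardiomyocytes stop dividing. Only adult heart was measured here, and neither cell division nor target mRNAs were, so the counts describe the family in adult heart and not the exit from the cell cycle.

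The 5p arms are shown because their common seed, in capitals, is what joins the hairpins, and because their remaining bases decide whether a read can be given to a single hairpin. Sequences are from RefSeq on GRCm38.p6, the build also called mm10, and all 7 hairpins had a mature sequence there. The 3p arms of the miR-16 hairpins are shown since they, unlike the 5p arm, tell those hairpins apart.
miR-15a-5p: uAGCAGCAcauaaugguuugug
miR-15b-5p: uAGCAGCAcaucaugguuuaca
miR-16-5p: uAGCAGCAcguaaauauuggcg
miR-195a-5p: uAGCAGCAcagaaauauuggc
miR-497a-5p: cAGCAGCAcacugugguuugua
miR-16-1-3p: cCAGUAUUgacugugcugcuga
miR-16-2-3p: aCCAAUAUuauugugcugcuuu
miR-497b: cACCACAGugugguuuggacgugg
miR-322-5p: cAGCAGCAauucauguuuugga
miR-195b: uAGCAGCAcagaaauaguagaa

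The 5 distinct 5p sequences of the family had the seed AGCAGCA, which 10 of the 1674 distinct mature sequences in the RefSeq table held at bases 2 to 8. The mature miR-497b had the seed ACCACAG instead, so Mir497b, although listed with the family, does not share its seed. Compared over the whole arm, with the common seed included, the 5p sequences of the family fell into like pairs. miR-16-5p and miR-195a-5p were identical at 19 of 21 positions, and miR-15a-5p and miR-15b-5p at 18 of 22. miR-497a-5p was nearest to miR-15a-5p, at 17 of 22 positions. The 3p arms of the family each had a seed that no other mature sequence in the table held.

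The same 22-base miR-16-5p lay whole in both Mir16-1 and Mir16-2, within a stretch of 23 bases common to them. A read that lies inside this stretch matches both hairpins equally, and the tables keep reads aligned to several places in a summary line outside the gene counts. That line held 42.3% of reads in replicate 1 and 46.8% in replicate 2. The counts of Mir16-1 and Mir16-2 are therefore uncertain, and they give no level for miR-16-5p itself. Mir497 and Mir497b overlap on opposite strands and were not compared with each other. Apart from the stretch common to Mir16-1 and Mir16-2, no family hairpin shared 18 bases with any of the 2202 hairpins it was compared with. The longest of the remaining shared stretches was the 16-base start of miR-195a-5p, which Mir195b also holds. Copies outside the annotated hairpins were not analysed here.

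**Figure D1:**
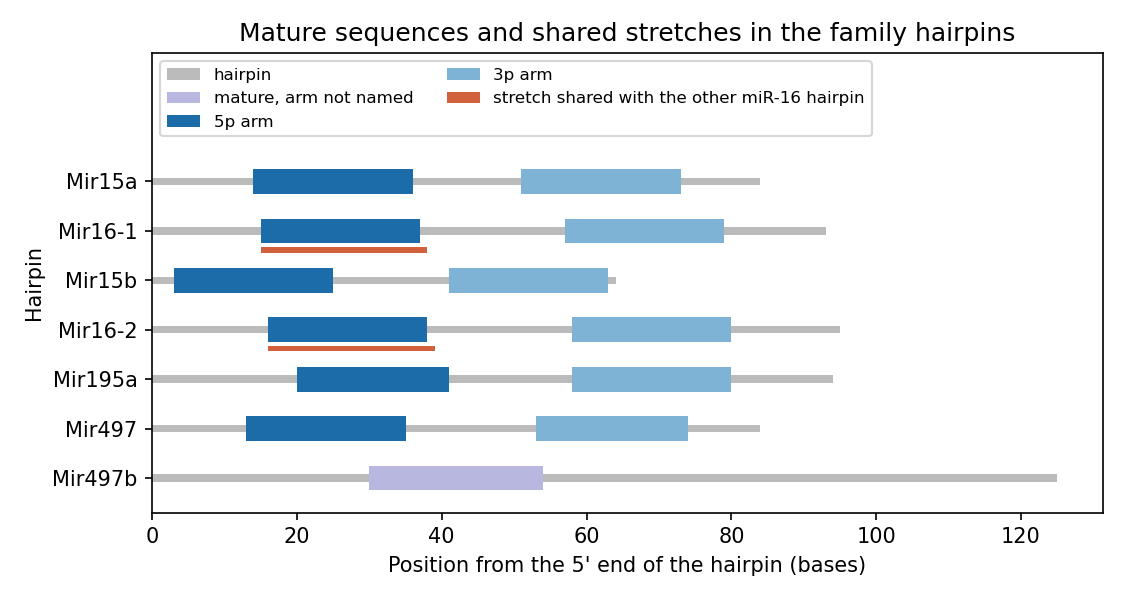
Position of the mature sequences in the 7 family hairpins, in bases from the 5′ end of each hairpin (horizontal axis), with the stretch of 23 bases that Mir16-1 and Mir16-2 share marked below their 5p arms. The shared stretch covers the whole 5p arm of both and leaves their 3p arms distinct.

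The hairpins lie in 3 clusters in the GENCODE M21 annotation of mm10. Mir15a (ENSMUSG00000093007.1, chromosome 14 from 61632027 to 61632110) and Mir16-1 (ENSMUSG00000092995.1, 61631880 to 61631972) lie on the minus strand with 54 bases between them, within the noncoding gene Dleu2. Mir15a was intronic in all 8 Dleu2 transcripts over it, whereas Mir16-1 overlapped an exon in 1 of 9. Mir15b (ENSMUSG00000065580.2, chromosome 3 from 69009772 to 69009835) and Mir16-2 (ENSMUSG00000065606.1, 69009902 to 69009996) lie 66 bases apart on the plus strand. Both were intronic in the 5 overlapping transcripts of Smc4, which encodes a subunit of condensin, the complex that compacts chromosomes in mitosis. Mir497 (ENSMUSG00000105220.1, chromosome 11 from 70234717 to 70234800) and Mir195a (ENSMUSG00000065411.2, 70235042 to 70235135) lie 241 bases apart on the plus strand, with no host gene annotated over them. Mir497b (ENSMUSG00000070109.2, 70234692 to 70234816) is annotated on the minus strand across the whole of Mir497, and its mature sequence overlaps miR-497a-3p by 17 bases on the other strand. No miRNA gene outside the family lies within 10 kb of any of the 7.

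Levels are given in CPM, the count of a hairpin on its own strand scaled to a sum of 1e6 in each library; the sense totals were 3889280 and 5058613. The heart identity of the libraries was checked with marker miRNA genes. The heart muscle genes Mir208a, Mir208b and Mir499 summed to 6731 and 7430 CPM, and endothelial Mir126a stood at 87115 and 87787 CPM. The neuronal Mir124a and Mir9 genes had 0 and 4 counts. miR-124 and miR-9 are each made from more than 1 hairpin, and reads aligned to several places are not in these counts. The low neuronal counts therefore do not show that these miRNAs were absent. The red cell genes Mir451a and Mir144 summed to 320 and 217 CPM. In bulk tissue, fewer cells of a type and less RNA per cell cannot be told apart.

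Replicate 1 gave the 7 hairpins 0.486% of its sense counts, with a 95% Clopper-Pearson interval from 0.479% to 0.493%. Replicate 2 gave them 0.578%, with an interval from 0.571% to 0.585%, and the mean was 0.532% ± 0.065 (SD, n = 2). The counting intervals did not overlap. Reads that match both Mir16-1 and Mir16-2 are in neither the family's counts nor the sense totals. The shares are therefore of reads given to a single gene, and the share of the whole family is uncertain. The intervals here cover counting error only and treat each read as an independent molecule, which was not tested. Reads amplified by PCR from the same molecule are not independent, so the intervals may be too narrow.

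Mir195a, the hairpin of the family's main postnatal heart miRNA, had the most gene counts of the family, with 5342 counts (1374 CPM) in replicate 1 and 12986 counts (2567 CPM) in replicate 2. Its mean of 1970 ± 844 CPM placed it at rank 41 of the 325 detected genes. All levels, ranks and orders here are of reads given to a single gene, so its place relative to the miR-16 hairpins, whose common reads are not counted, is not settled. Its cluster partner Mir497 had 4615 counts (1187 CPM) and 3476 counts (687 CPM), a mean of 937 ± 353 CPM at rank 60. Mir195a was high in replicate 2 and Mir497 in replicate 1, and the values of Mir195a lay above those of Mir497 in both libraries.

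Mir15a, the Dleu2 hairpin that is often deleted together with Mir16-1 in human leukaemia, had 4234 counts (1089 CPM) in replicate 1 and 3547 counts (701 CPM) in replicate 2. Its mean was 895 ± 274 CPM, at rank 62. Mir16-1 had 1567 counts (403 CPM) and 2997 counts (592 CPM), a mean of 498 ± 134 CPM at rank 82. Here too the partners were high in different libraries, Mir15a in replicate 1 and Mir16-1 in replicate 2.

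Mir15b, in Smc4, had 2693 counts (692 CPM) in replicate 1 and 5488 counts (1085 CPM) in replicate 2, a mean of 889 ± 278 CPM at rank 64. Mir16-2 had 442 counts (114 CPM) and 741 counts (146 CPM), a mean of 130 ± 23.2 CPM at rank 121. Both hairpins of this cluster were higher in replicate 2.

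**Figure D2:**
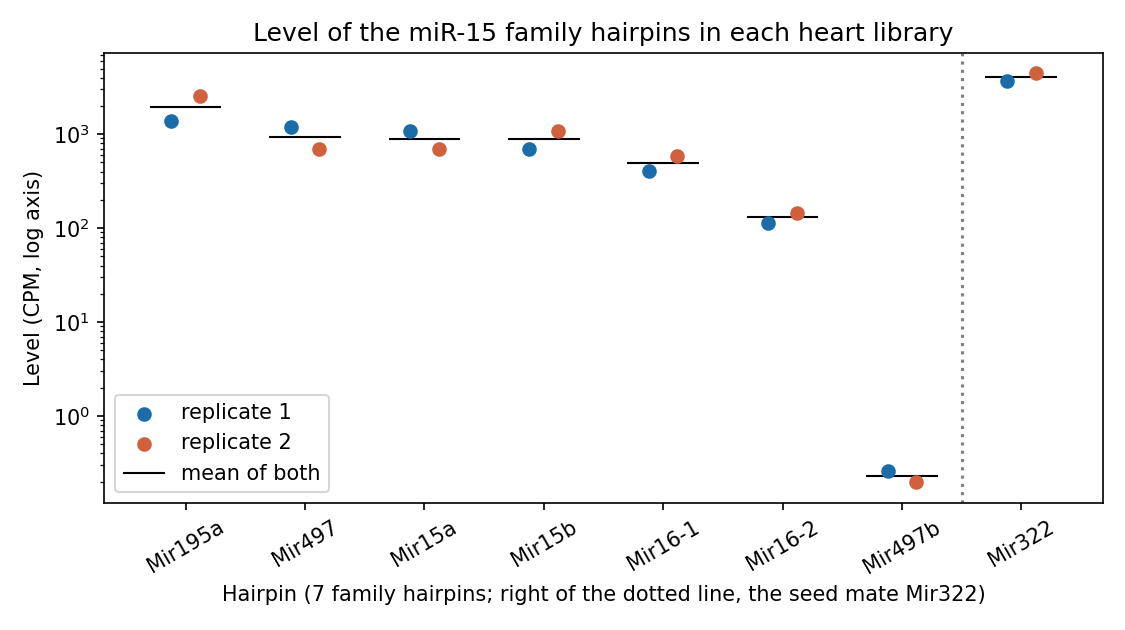
Level in CPM (vertical log axis) of the 7 family hairpins, ordered by mean, and of the seed mate Mir322; points are the libraries and bars their mean. Mir195a has the highest gene counts of the family in both libraries at 1374 and 2567 CPM, and Mir497b lies near 0 with 1 count in each.

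Small RNA reads cover a mature miRNA whole, so CPM is not usually divided by hairpin length. By CPM per hairpin the order of means was Mir195a, Mir497, Mir15a, Mir15b, Mir16-1, Mir16-2 and Mir497b. The ranges of Mir497, Mir15a and Mir15b overlapped, so their order is not settled by these libraries. Per 100 nt of hairpin, Mir195a stood first at 2096 ± 898 CPM and Mir15b, the shortest hairpin at 64 nt, moved to the next place at 1389 ± 434 CPM. Mir497 and Mir15a followed at 1115 ± 420 and 1065 ± 326 CPM per 100 nt, and the ranges of these 4 hairpins overlapped between neighbours. Mir16-1 at 535 ± 144 and Mir16-2 at 137 ± 24.4 CPM per 100 nt stood below them in both libraries.

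By cluster, Mir195a with Mir497 held more of the family's counts than either other cluster, at 52.7% and 56.3% of them in replicates 1 and 2. Mir15a with Mir16-1 held 30.7% and 22.4%, and Mir15b with Mir16-2 held 16.6% and 21.3%. The chromosome 11 cluster had 1.72 counts for each count of the Dleu2 cluster in replicate 1 (exact 95% interval 1.66 to 1.77), against 2.52 in replicate 2 (2.44 to 2.59). The order of the 3 clusters was the same in both libraries, but the Dleu2 cluster exceeded the Smc4 cluster by a factor of 1.85 (1.77 to 1.93) in replicate 1 and only 1.05 (1.01 to 1.09) in replicate 2. These shares leave out the reads of miR-16-5p that match both clusters that hold it.

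**Figure D3:**
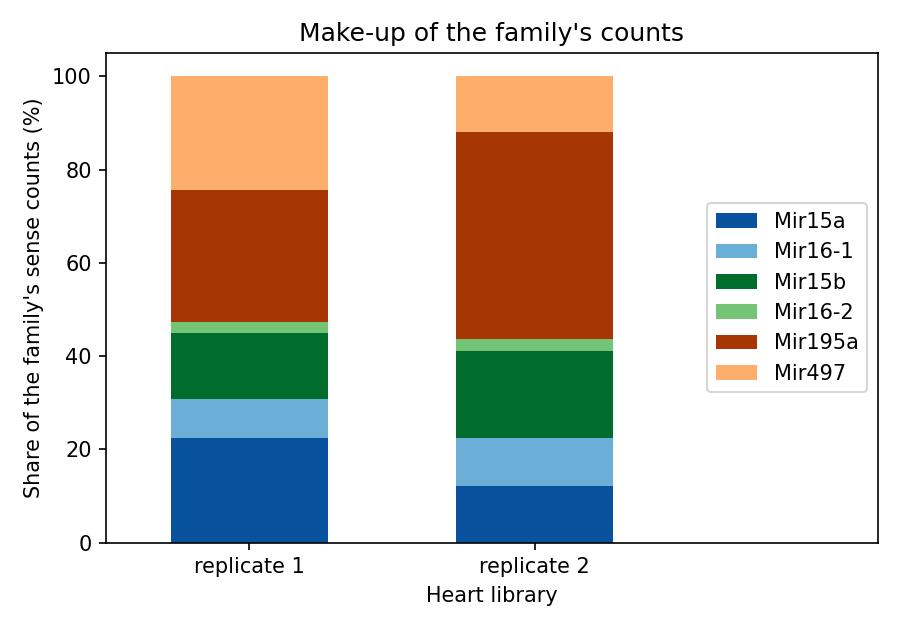
Share of the family's sense counts (vertical axis, percent) held by each hairpin in replicates 1 and 2, stacked by cluster; Mir497b, with 1 count in each library, is not drawn. Mir195a takes 28.3% of the counts in replicate 1 and 44.4% in replicate 2, while Mir497 takes 24.4% and 11.9% and Mir15a 22.4% and 12.1%.

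Partners of a cluster are cut from a common primary transcript, so the ratio of their counts was taken within each library, where it does not depend on scaling. Mir195a had 1.16 counts for each count of Mir497 in replicate 1 (exact 95% interval 1.11 to 1.20). In replicate 2 it had 3.74 (3.60 to 3.88), which was 3.23-fold higher. Mir15a had 2.70 counts for each count of Mir16-1 in replicate 1 (2.55 to 2.87) and 1.18 in replicate 2 (1.13 to 1.24), which was 2.28-fold higher in replicate 1. Mir15b had 6.09 counts for each count of Mir16-2 in replicate 1 (5.51 to 6.75) and 7.41 (6.86 to 8.01) in replicate 2, which was 1.22-fold higher. In each cluster the hairpin named first had more gene counts in both libraries, and the counting intervals of the libraries did not overlap. The counts of Mir16-1 and Mir16-2 leave out reads that match both, so the order and ratio within their clusters are uncertain. As means over the libraries the ratios were 2.45 ± 1.82, 1.94 ± 1.07 and 6.75 ± 0.929 in the same order. The first 2 ranges overlapped, and the Mir15b to Mir16-2 ratio of these gene counts lay above both.

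**Figure D4:**
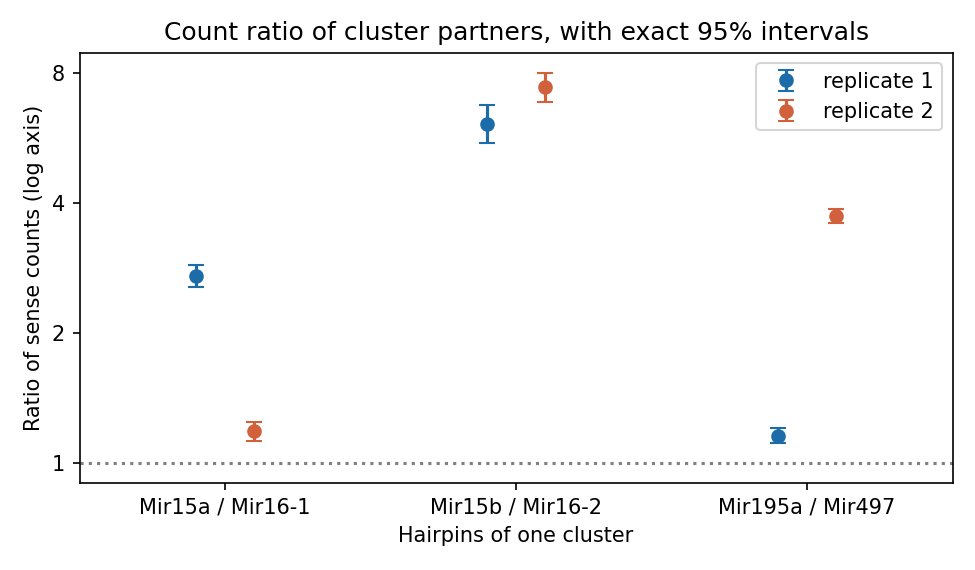
Ratio of the sense counts of cluster partners (vertical log axis) in replicate 1 and replicate 2, with exact 95% binomial intervals; the dotted line marks equal counts. The Mir195a to Mir497 ratio goes from 1.16 to 3.74 and the Mir15a to Mir16-1 ratio from 2.70 to 1.18, while Mir15b to Mir16-2 lies at 6.09 and 7.41. The counts of Mir16-1 and Mir16-2 leave out reads that match both.

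Differences between the libraries were tested for every gene by an exact binomial test, two-sided, after TMM scaling, and p-values were adjusted by the Benjamini-Hochberg method over all 412 genes with a count sum of at least 10. The test compares the reads of these 2 libraries, not conditions. Of the 7 family hairpins 6 were tested and 6 differed, against 45.4% of all tested genes and 85.8% of the 134 genes of at least 100 CPM, a group that holds all 6. Most genes of their abundance differed too, so the count is no result about the family. Mir195a, Mir15b, Mir16-1 and Mir16-2 were higher in replicate 2, as were 22.8% of all tested genes and 41.8% of the abundant ones. Mir15a and Mir497 were higher in replicate 1, as were 22.6% and 44.0%.

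Mir195a was 2.04-fold higher in replicate 2 (exact 95% interval 1.97 to 2.10), a log2 ratio of 1.03 with 1 CPM added to both levels. Mir15b was 1.71-fold higher in replicate 2 (1.63 to 1.79), Mir16-1 1.60-fold (1.51 to 1.71) and Mir16-2 1.41-fold (1.25 to 1.58). Mir497 was 1.58-fold higher in replicate 1 (1.51 to 1.66) and Mir15a 1.42-fold (1.36 to 1.49). The adjusted p of Mir16-2, the largest of the 6, was 4.63e-08 by the exact binomial test. The median size of the log2 ratio was 0.67 over the 6 hairpins, against 0.39 over all tested genes and 0.33 over those of at least 100 CPM. Whether the family differed more than other genes was not tested, and partners of a cluster are cut from a common transcript.

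With TMM scaling 8 of the 12 marker genes tested differed between the libraries, in both directions. Of all tested genes 45.4% differed, and of those of at least 100 CPM 85.8%, so the count is not read as a result about the markers. The heart muscle gene Mir208a stood at 3885 CPM in replicate 1 and 1485 CPM in replicate 2, while Mir499 stood at 2732 and 5888 CPM. The third heart muscle gene, Mir208b, stood at 115 and 56.5 CPM. Smooth muscle Mir143 was 1.53-fold higher in replicate 2 (exact 95% interval 1.52 to 1.54), while Mir145a stood at 1463 and 1522 CPM. The TMM-scaled ratios of Mir145a and endothelial Mir126a were 1.13 and 1.10, near the size of the shift between scalings. Red cell Mir451a stood at 288 and 165 CPM and Mir144 at 32.1 and 52.4 CPM. The white cell genes Mir223, Mir142 and Mir150, at 191, 94.6 and 1672 CPM in replicate 1 and 184, 95.7 and 1510 CPM in replicate 2, did not pass the test, nor did liver Mir122 at 28.8 and 27.1 CPM. The part of these differences in those of the family was not tested.

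**Figure D5:**
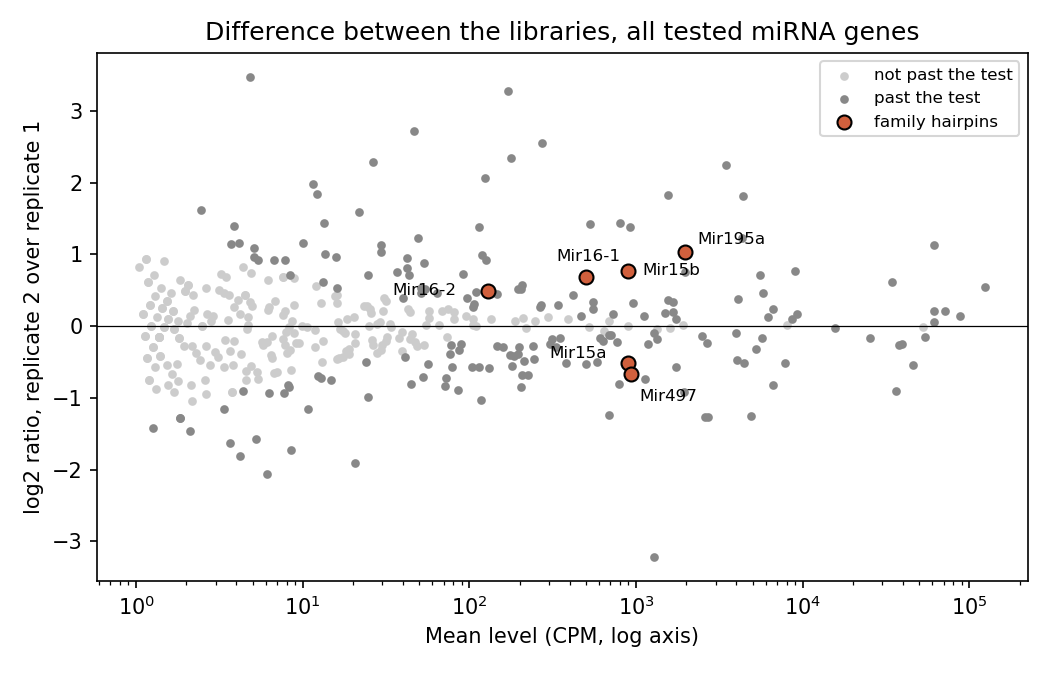
Log2 ratio of replicate 2 over replicate 1 (vertical axis) against mean level in CPM (horizontal log axis) for the 412 tested genes, with the 6 tested family hairpins in colour; darker grey marks genes past the exact binomial test. Mir195a stands at 1.03 and Mir497 at -0.66, within the range of other genes at that level.

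Total-count scaling kept the direction of all 6 hairpins. It moved the median log2 ratio of all tested genes from -0.0038 to -0.115 and the share of calls higher in replicate 2 from 50.3% to 39.7%. The log2 ratio of Mir195a, 1.03 with TMM, was 0.90 with total counts, and that of Mir497, -0.66 with TMM, was -0.79.

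Strand decided what was counted at the Mir497 locus. On the plus strand Mir497 had 4615 and 3476 counts, and on the minus strand Mir497b had 1 and 1. Mir497b thus held 0.0217% of the 4616 counts at the locus in replicate 1, with a 95% Clopper-Pearson interval from 0.000548% to 0.121%. The share in replicate 2 was 0.0288% of 3477, with an interval from 0.000728% to 0.160%. Its level of 0.257 and 0.198 CPM lay below the limits of 0.771 and 0.593 CPM that a count of 0 allows (3 counts). In the column of the opposite strand the values were mirrored, with 1 and 1 for Mir497 and 4615 and 3476 for Mir497b. In the column that ignores strand, where a summary line sets aside ambiguous reads, 857957 and 1274429 of them in all, both genes stood at 0 in both libraries. The other 5 hairpins had 0 counts on the opposite strand in both libraries and the same counts with and without strand.

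Outside the 7 hairpins, 5 genes of the tables carry a mature miRNA with the seed AGCAGCA: Mir322, Mir195b, Mir6342, Mir6353 and Mir6419. Mir322, an X-linked hairpin whose miRNA is the mouse counterpart of human miR-424, had 14406 counts (3704 CPM) in replicate 1 and 22431 counts (4434 CPM) in replicate 2. At 4069 ± 516 CPM it exceeded every family hairpin in both libraries by reads given to a single gene, and it stood at rank 32. No count was found for the other 4, whose levels may be up to the same limits of 0.771 and 0.593 CPM. Mir322 had 0.762 counts for each count of the 7 hairpins together in replicate 1 (exact 95% interval 0.746 to 0.779). In replicate 2 it had 0.767 (0.754 to 0.781), and these intervals overlapped. The sum of the 7 hairpins leaves out reads of miR-16-5p that match both of its hairpins, so the ratio to the whole family is uncertain. Mir322 was 1.31-fold higher in replicate 2 (1.28 to 1.33) and kept that direction and call in each of the other 5 settings in which it was tested.

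The genes most like each hairpin were sought among the tested genes by Euclidean distance in log2(CPM + 1) over the 2 libraries. Mir15a and Mir497, which lie on different chromosomes, were nearest to each other at a distance of 0.13. Mir195a was nearest to Mir27a at 0.20, with 1548 and 2402 CPM for Mir27a, and then to Mir146 at 0.54. Mir16-2 was nearest to Mir1843a at 0.24 and Mir186 at 0.29. Mir16-1 was nearest to Mir30c-1 at 0.35 and Mir335 at 0.37, and Mir15b to Mir455 at 0.38 and Mir29c at 0.43. The next nearest were Mir324 for Mir15a at 0.35 and Mir92-1 for Mir497 at 0.38. With 2 libraries, such likeness is little more than a like level.

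Other miRNA genes known to act on cardiomyocyte proliferation were taken from a list of 25, of which 24 matched by symbol and Mir590 did not. Of 8 that restrain proliferation, all tested, 2 were higher in each library and 4 did not pass, so 4 of 8 were called against 45.4% of all tested genes (22.8% higher in replicate 2 and 22.6% in replicate 1). With total counts 0 were higher in replicate 2 and 2 in replicate 1, so no direction is given. By reads given to a single gene, Mir29a at 15542 ± 1150 CPM and Mir34a at 8678 ± 98.5 CPM led this list. The hairpins of miR-1a stood at 1.65 (Mir1a-1) and 40.1 CPM (Mir1a-2), and those of miR-133a at 3.58 (Mir133a-1) and 2.67 CPM (Mir133a-2). miR-1a and miR-133a are each made from more than 1 hairpin, and reads aligned to several places are not in these values, so no order of the mature miRNAs is given. Of 16 matched genes that promote proliferation 10 were tested, 4 higher in replicate 2 and 3 in replicate 1, against 22.8% and 22.6% of all tested genes. The 4 were the Mir302 genes, and Mir92-1 was 1.67-fold higher in replicate 1 (exact 95% interval 1.60 to 1.74). By reads given to a single gene, Mir92-1 at 1137 ± 468 CPM and Mir17 at 891 ± 55.6 CPM had the highest levels of the promoting genes. These were near the levels of Mir497, Mir15a and Mir15b. Reads aligned to several places are left out here too, so no order of the promoting mature miRNAs is given. The median log2 ratio was 0.029 for the tested restraining genes and 0.12 for the tested promoting genes, against -0.0038 for all tested genes.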

How the data were processed

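The deposited tables hold raw counts per miRNA gene in 3 columns, 1 without strand and 1 per strand, as judged from the values, with 4 leading summary lines. Build mm10 and GENCODE M21 are named per the file headers of the description files deposited beside them. Aligner and read filters are stated nowhere in the sources used here. Summary lines name no gene and stayed out of library sizes and tests. They hold unmapped reads (14.5% and 12.5% of reads in replicates 1 and 2), reads aligned to several places (42.3% and 46.8%) and reads in no gene (7.33% and 5.15%). All 2202 gene IDs matched the annotation. Of the strand columns, that with more gene counts in each library was read as sense. Levels are CPM of the sense total, as mean ± SD of 2 libraries. Genes with a count sum of at least 10 were tested by a two-sided exact binomial test (scipy 1.17.1) at the ratio of TMM effective library sizes (edgeR 4.0.16), with Benjamini-Hochberg adjustment at 0.05 over all genes tested. With 1 group, no quasi-likelihood test was run. The procedure was tested on simulated data.

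All 7 family hairpins are named, with genes of the same seed, miRNA genes within 10 kb or opposite, the 2 nearest genes in level per detected hairpin, and a list of 25 proliferation genes. The hairpins and lists were chosen with earlier results of these data known. Alternatives were total counts, DESeq2 1.42.0 size factors, other count minimums, another pseudocount, the column without strand, all reads as denominator, and each library alone.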

Additional observations from a re-analysis of the deposited data

How the results depend on the processing

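The direction and call of the 6 tested hairpins held under total counts, DESeq2 size factors, no filter on low counts and a count sum of at least 50. Adding 0.5 CPM instead of 1 enters only the log2 ratio, so it could not change direction or call. In the column that ignores strand Mir497 had no counts and could not be tested, and the other 5 kept direction and call. The count of genes that differed was 187 in the reported setting and between 172 and 199 under these alternatives. With all reads of the tables as denominator the family's share was 0.190%. In the column that ignores strand, where Mir497 drops out, the chromosome 11 cluster had 1.45 counts for each of the Dleu2 cluster and 1.89 for each of the Smc4 cluster, and a Mir195a to Mir497 ratio could not be had. Using a single library, the family's share ranged from 0.486% to 0.578%. The ratio of Mir195a to Mir497 ranged from 1.16 to 3.74, of Mir15a to Mir16-1 from 1.18 to 2.70 and of Mir15b to Mir16-2 from 6.09 to 7.41. Single-library cluster ratios ranged from 1.72 to 2.52 (chromosome 11 to Dleu2), 2.64 to 3.18 (chromosome 11 to Smc4) and 1.05 to 1.85 (Dleu2 to Smc4). No paired analysis was possible because both libraries belong to 1 group. Reads that match both miR-16 hairpins are not counted by gene, and how many there were is not known here. At this depth a count of 0 allows up to 0.771 and 0.593 CPM in replicates 1 and 2.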
